A study of Rattus norvegicus with 21 samples.

Results

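Scd, Srebf1 and 8 other genes of hepatic fatty acid synthesis (Acaca, Fasn, Acly, Elovl6, Thrsp, Pklr, Fads1 and Fads2) were followed in rat liver across all dose groups of 2 compounds. The 10 genes were listed with earlier results of these data known, so counts set beside the background below are a description, not a test. Their probe sets were taken by name alone, where the platform's gene symbol is exactly one of these 10 names. This gave 17 probe sets of the 31099 on the array. Scd, Acly, Fads1 and Fads2 each had 1 probe set, Srebf1, Acaca, Fasn, Elovl6 and Pklr had 2, and Thrsp had 3. All 17 passed the filter on low signal in every comparison. Where a gene had several, the probe set with the highest mean over all 21 arrays stands for it below, and the others are given beside it.

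The liver turns surplus carbohydrate into fat through this pathway. Pyruvate kinase (Pklr) feeds glycolytic carbon towards citrate, ATP citrate lyase (Acly) splits citrate into cytosolic acetyl-CoA, acetyl-CoA carboxylase (Acaca) makes malonyl-CoA, and fatty acid synthase (Fasn) builds palmitate. Elovl6 lengthens palmitate, the stearoyl-CoA desaturase Scd makes monounsaturated fatty acids, and Fads1 and Fads2 desaturate polyunsaturated ones. Srebf1 encodes the transcription factor SREBP-1, which insulin raises in liver and which drives many of these genes, and Thrsp (Spot 14) is a thyroid hormone and carbohydrate responsive protein that follows lipogenesis.

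The piperonyl butoxide (PBO) study used male Sprague-Dawley rats given 0.5% methyl cellulose alone (0 mg/kg) or PBO, an insecticide synergist, at 500, 1000 or 1500 mg/kg by mouth for 7 days. The dammar resin (DAM) study used male Fischer344 rats fed for 28 days on basal diet (0 mg/kg) or on diet with 2% or 5% of this plant resin, stated as equal to 800 and 2000 mg/kg. Each of the 7 groups held 3 animals, named as biological replicates, with 1 Affymetrix array per animal. PBO livers were stored in RNAlater and DAM livers were frozen in liquid nitrogen, so compound, strain, route, duration and storage cannot be told apart between the studies.

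The deposited values are linear MAS5 signals, a brightness per probe set, and all changes below are differences of mean log2(signal + 16), dosed minus undosed or higher minus lower dose. Errors on changes are standard errors (SE) of the limma fit with 3 animals per group, errors on signals are standard deviations (SD, n = 3), and a call means a Benjamini-Hochberg adjusted p under 0.05 over all 18625 probe sets tested. The pseudocount of 16 makes changes of dim probe sets look smaller than they are. Signals are not compared between genes, because each probe set has its own brightness.

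The liver label was checked with its markers: all 8 hepatocyte markers had probe sets, and their summed signal lay between 224243 and 269076 at PBO 1500 mg/kg against 252399 to 318131 in undosed PBO rats. In the DAM study it lay between 206748 and 245109 at 2000 mg/kg against 191465 to 237173 on basal diet. Within that sum 3 of the 8 fell at PBO 1500 mg/kg, Cps1 (-0.78), Hnf4a (-0.59) and Fgb (-0.63), and none rose. Over all probe sets tested 9.26% fell and 8.08% rose there. At DAM 2000 mg/kg Tat (-2.35) and Hnf4a (-0.34) fell and Apoa1 (0.62) rose, beside 6.11% lower and 6.22% higher over all probe sets tested. Of the fat cell markers on the array, Adipoq and Lep were under a signal of 100 on every array. Cfd, Fabp4 and Plin1 reached 960.4, 248.9 and 127.3 on their highest arrays. The third PBO 1500 mg/kg animal stood apart, with a root mean square deviation of 0.515 from its group mean against 0.386 to 0.439 on the other PBO arrays. Its ratios of 3′ to 5′ signal were 1.07 for Gapdh and 2.38 for beta-actin, against 1.07 to 1.19 and 2.38 to 3.16 over all PBO arrays and 1.52 to 2.01 and 5.56 to 9.81 over the DAM arrays. Where leaving it out changed a call for the probe set that stands for a gene, or for a named list gene at PBO 1500 mg/kg, this is stated. A called value that moved by over 1.5 times is given both ways. The second probe sets of Fasn, Srebf1, Pklr and Thrsp were also called lower at PBO 500 and 1000 mg/kg without it. So was the second Pklr one at 1500 against 500 mg/kg (-0.59, adjusted p = 0.0447). For PBO minus DAM, the second Fasn (1.36) and both other Thrsp probe sets (1.005 and 1.38) were then called higher. In whole liver, fewer cells of a type and less RNA per cell cannot be told apart.

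The RefSeq promoter table (build GRCr8, 250 bases before to 50 bases after each start) held windows for 7 of the 10 genes: Scd, Srebf1, Acly, Thrsp, Pklr, Fads1 and Fads2. Acaca, Fasn and Elovl6 are named only. The 3 windows below belong to the enzyme with the deepest fall of the 10 genes in both studies (Scd), to the regulator that fell with it (Srebf1, the downstream of its 2 listed starts), and to the glycolytic gene that fell beside them (Pklr). Capitals mark matches to the motifs searched on both strands, which were CACGTG (E-box), TCACNCCAC (sterol regulatory element), CCAAT (the box of that name), GGGCGG (GC box), and, each as a pair of short repeats around a spacer of any bases, the carbohydrate response element and the LXR element.
Scd, chr1:253231682-253231981, minus strand: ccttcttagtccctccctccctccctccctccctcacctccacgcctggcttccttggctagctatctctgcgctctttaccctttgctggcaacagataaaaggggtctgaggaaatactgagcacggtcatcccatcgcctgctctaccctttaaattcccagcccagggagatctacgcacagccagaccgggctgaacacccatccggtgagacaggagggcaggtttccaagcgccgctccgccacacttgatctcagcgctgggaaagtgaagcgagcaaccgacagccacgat
Srebf1, chr10:45518961-45519260, minus strand: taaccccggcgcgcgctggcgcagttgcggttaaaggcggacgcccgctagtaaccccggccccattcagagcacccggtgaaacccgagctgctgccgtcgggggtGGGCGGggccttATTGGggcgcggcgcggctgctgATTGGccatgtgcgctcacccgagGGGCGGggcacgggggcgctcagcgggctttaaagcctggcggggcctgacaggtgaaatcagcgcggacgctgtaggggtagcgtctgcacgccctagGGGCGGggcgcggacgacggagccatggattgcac
Pklr, chr2:176841014-176841313, plus strand: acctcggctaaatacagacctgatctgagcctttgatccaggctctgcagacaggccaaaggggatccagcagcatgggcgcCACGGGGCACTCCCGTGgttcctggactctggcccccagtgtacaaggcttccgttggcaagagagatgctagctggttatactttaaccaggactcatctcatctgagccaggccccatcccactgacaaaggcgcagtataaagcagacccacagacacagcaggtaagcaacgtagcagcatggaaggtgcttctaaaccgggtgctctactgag

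Pklr carried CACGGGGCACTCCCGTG at positions -168 to -152 from its start, a match to the carbohydrate response element, the site of the glucose-sensing factor ChREBP, which Mlxipl encodes. That motif was found in 11 of 33469 promoter windows (0.0329%). The Srebf1 window held 2 CCAAT boxes, read as ATTGG on this strand, and 3 GC boxes, motifs present in 37.5% and 33.1% of all windows. Scd had no match to any of the 6 motifs, which says only that these letters are not in this window. E-box, sterol regulatory element and LXR element matches occurred in 6.42%, 1.12% and 0.00598% of all windows and in none of the 8 windows of the 7 genes.

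Scd fell in every dosed group of both studies. In the PBO study its signal was 10752, 10273 and 16046 at 0 mg/kg, 91.8, 102.5 and 179 at 500 mg/kg, 86.1, 135 and 714 at 1000 mg/kg, and 834, 298 and 206 at 1500 mg/kg. The highest dosed animal thus stood far below the lowest undosed one, and the spread between dosed animals was wide at 1000 and 1500 mg/kg. The changes were -6.48, -5.76 and -4.96 at 500, 1000 and 1500 mg/kg (SE 0.62 each; adjusted p = 0.000204, 0.000255 and 0.000204), or 89.4-, 54.0- and 31.1-fold lower on that scale. From lowest to highest mean, the order of groups was 500, 1000, 1500 and 0 mg/kg. The 1500 mg/kg animals all lay above the 500 mg/kg animals, yet that difference, 1.52 ± 0.62 (95% interval 0.175 to 2.87), was not called (adjusted p = 0.163). The 1000 mg/kg animals overlapped both neighbouring groups.

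In the DAM study Scd had signals of 23242, 32042 and 31514 on basal diet, 5287, 2615 and 8860 at 800 mg/kg, and 1154, 283 and 913 at 2000 mg/kg. The 3 groups did not overlap and followed the dose. The change was -2.52 ± 0.46 at 800 mg/kg (adjusted p = 0.00938) and -5.38 ± 0.46 at 2000 mg/kg (adjusted p = 1.39e-05). Between the doses the 2000 mg/kg animals were lower by a further 7.25-fold (-2.86 ± 0.46, adjusted p = 0.00879). The lowest dose of each compound therefore gave different values, -6.48 for PBO and -2.52 for DAM, at unlike doses and times. At the highest doses the PBO change minus the DAM change was 0.42 ± 0.88 (95% interval -1.42 to 2.27, adjusted p = 0.849).

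**Figure D1:**
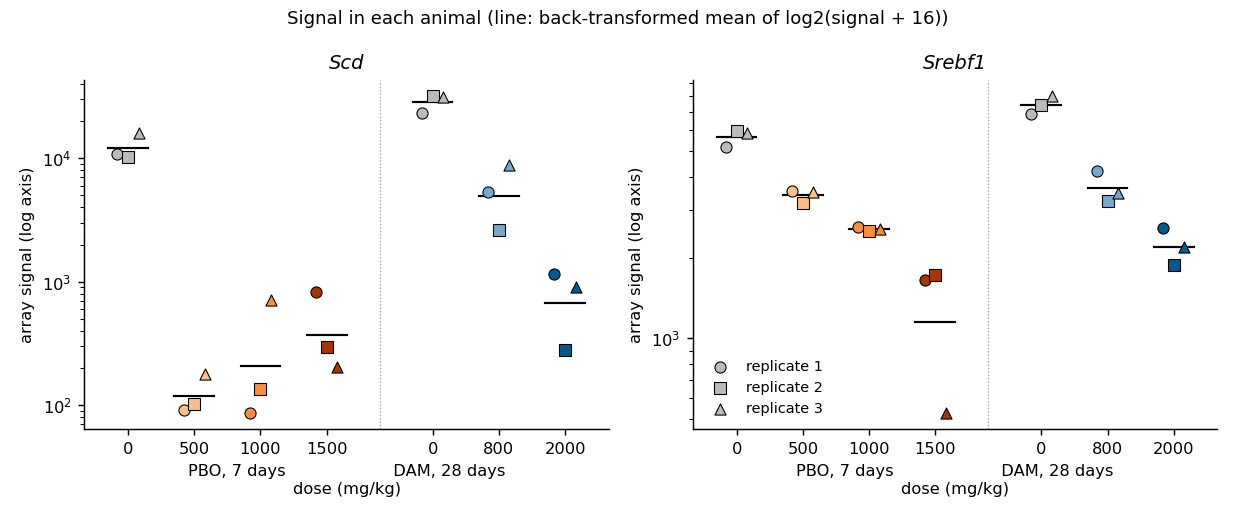
Signal of Scd and Srebf1 in every animal (log axis), by dose in mg/kg, for the PBO and DAM studies, with a line at each group's back-transformed mean of log2(signal + 16). Scd lay between 86.1 and 834 in PBO-dosed animals against 10273 to 16046 in undosed ones. The main probe set of Srebf1, drawn here, stepped down with dose in both studies.

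On its main probe set Srebf1 changed in smaller steps that followed the dose. Its signal was 5175, 5936 and 5861 at 0 mg/kg PBO, 3537, 3207 and 3521 at 500 mg/kg, 2614, 2512 and 2566 at 1000 mg/kg, and 1655, 1726 and 524 at 1500 mg/kg. No neighbouring dose groups overlapped on this probe set. In the main fit, with all arrays at equal weight, only the 1500 mg/kg change was called (-2.28 ± 0.32, adjusted p = 0.000493). There 500 and 1000 mg/kg gave -0.72 and -1.13 (adjusted p = 0.48 and 0.0852), and with array weights both were called (adjusted p = 0.0404 and 0.00083). The limma error is pooled over the study, and the third 1500 mg/kg animal widens it. Without that animal the changes were -0.72 ± 0.085, -1.13 ± 0.085 and -1.73 ± 0.096 in order of dose, and all 3 were called (adjusted p = 0.000584, 5.93e-06 and 1.44e-07). Srebf1 was also lower at 1500 than at 500 mg/kg (-1.56 ± 0.32, adjusted p = 0.013), and without that animal the difference was -1.01 (adjusted p = 6.05e-05). With only the compared arrays, and that animal among them, the call was lost (adjusted p = 0.114).

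DAM gave the same order for Srebf1. Signals were 6878, 7461 and 8053 on basal diet, 4203, 3262 and 3487 at 800 mg/kg, and 2573, 1870 and 2193 at 2000 mg/kg, again without overlap. The gene fell by 1.03 ± 0.12 at 800 mg/kg (adjusted p = 0.000481) and by 1.76 ± 0.12 at 2000 mg/kg (adjusted p = 2.56e-06). Between 2000 and 800 mg/kg the difference was -0.72 ± 0.12 (adjusted p = 0.0104), and it was -0.62 and no longer called without the first 800 mg/kg animal (adjusted p = 0.052). The second Srebf1 probe set gave -1.57 at PBO 1500 mg/kg and -1.54 at DAM 2000 mg/kg, both called, and -1.05 at PBO 1500 mg/kg without the animal that stood apart (adjusted p = 0.000197). Its PBO 1500 against 500 mg/kg difference of -1.03 was not called (adjusted p = 0.0719), while without that animal it was -0.51 and called (adjusted p = 0.0425). On this second probe set the PBO 1500 mg/kg signals, 875, 904 and 289, overlapped those at 1000 mg/kg, 862, 936 and 978. Without that animal its changes at 1000 and 1500 mg/kg were close, at -0.99 and -1.05. PBO minus DAM at the highest doses was -0.53 ± 0.39 for the main probe set (adjusted p = 0.499), and 0.03 without the PBO animal that stood apart.

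With DAM, most of the 10 genes fell. At 800 mg/kg, 7 of 10 genes fell and none rose (background 1.62% of probe sets lower and 2.16% higher), and at 2000 mg/kg the same 7 fell (background 6.11% lower and 6.22% higher). In a fit without limma's intensity trend, 3 of the 10 were called at 800 mg/kg, since Scd, Acaca, Acly and Thrsp were lost (adjusted p = 0.0764, 0.0567, 0.0768 and 0.1). The 7 genes were Scd, Srebf1, Acaca, Fasn, Acly, Thrsp and Pklr, and their dosed animals lay wholly below those on basal diet at both doses, as did 10.9% and 16.6% of all probe sets. The median change of the 10 was -0.87 and -1.34, against -0.02 and -0.04 over all probe sets tested. Between 2000 and 800 mg/kg, 3 of the 10 fell (background 0.719% lower and 0.392% higher): Scd, Srebf1 and Thrsp.

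With PBO, only Scd was called at 500 mg/kg (1 of 10, background 0.129% lower and 0.349% higher) and at 1000 mg/kg (1 of 10, background 1.23% lower and 1.88% higher). At 1500 mg/kg, 4 of 10 genes fell (background 9.26% lower), namely Scd, Srebf1, Pklr and Acly, and Elovl6 rose (background 8.08% higher). All 4 were among the 7 that fell with DAM 2000 mg/kg. Median changes of the 10 were -0.60, -0.48 and -0.74 in order of dose, against -0.04, -0.05 and -0.08 over all probe sets tested. Groups without overlap were more frequent than calls: 7 genes at 500 mg/kg and 8 at 1000 mg/kg lay entirely below the undosed animals, against 11.6% and 15.5% of probe sets. Without the third 1500 mg/kg animal, limma called 5 genes lower at 500 mg/kg (Scd, Srebf1, Pklr, Thrsp and Acaca), where the background was 0.768% lower. At 1000 mg/kg it then called 6 lower (Scd, Srebf1, Pklr, Acly, Thrsp and Fads2), against a background of 3.51%. Between 1500 and 500 mg/kg, Srebf1 fell and Elovl6 rose (1 of 10 each, background 3.6% lower and 3.75% higher). Acaca and Fasn were also called higher in that comparison without the third 1500 mg/kg animal, at 0.77 and 0.75 (adjusted p = 0.00187 and 0.0382). That fit called 623 probe sets higher and 682 lower of 18625. The second probe sets of Acaca and Fasn were not called in it, at 0.295 and 0.208 (adjusted p = 0.508 and 0.671).

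**Figure D2:**
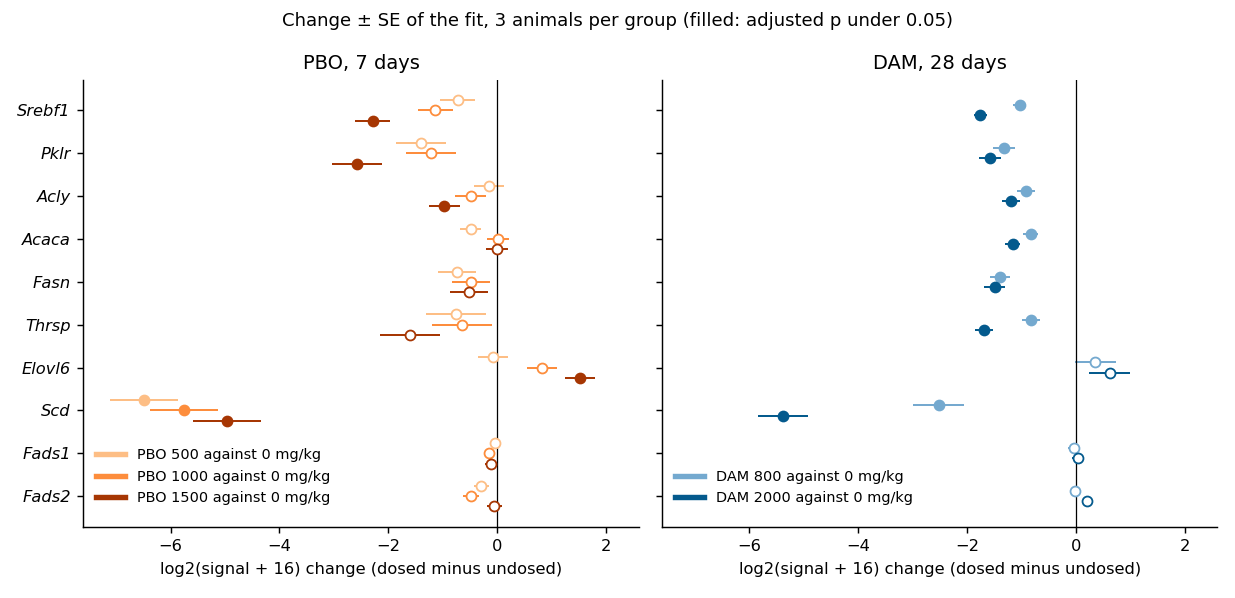
Change of each of the 10 genes (log2(signal + 16), dosed minus undosed) with its standard error in every dosed group, PBO and DAM; filled points were called and open points were not. Scd reached -6.48 with PBO and -5.38 with DAM, whereas Elovl6 lay at 1.52 at PBO 1500 mg/kg and Fads1 near 0 in all groups.

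Pklr, which makes pyruvate at the end of glycolysis, was low in all PBO-dosed animals. Its signal was 4273, 4569 and 5150 at 0 mg/kg, 1645, 1640 and 2002 at 500 mg/kg, 1914, 1990 and 2064 at 1000 mg/kg, and 1153, 1561 and 249.5 at 1500 mg/kg. The groups at 500 and 1000 mg/kg overlapped each other and lay wholly below the undosed animals. The change of -2.57 ± 0.46 at 1500 mg/kg was called (adjusted p = 0.00229), and those of -1.40 and -1.22 at the lower doses were not (adjusted p = 0.294 and 0.207). Without the animal that stood apart, all 3 were called, at -1.40, -1.22 and -1.78. In the DAM study Pklr had 2976, 3712 and 3762 on basal diet, 1530, 979.5 and 1747 at 800 mg/kg, and 1489, 1116 and 905 at 2000 mg/kg. It fell by 1.32 ± 0.21 and 1.58 ± 0.21 (adjusted p = 0.00321 and 0.00031), and the dosed groups overlapped. The second Pklr probe set had 433, 554 and 36.1 at PBO 1500 mg/kg against 1804, 2344 and 2293 at 0 mg/kg. Its change was -3.18 (adjusted p = 0.00431), and -2.09 without the third animal (adjusted p = 2.8e-06). With DAM 2000 mg/kg it fell by 2.12.

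Acly, the source of cytosolic acetyl-CoA, had signals of 6946, 7342 and 2688 at PBO 1500 mg/kg against 9444, 10072 and 10930 at 0 mg/kg. One animal supplied much of the change of -0.97 ± 0.28 (adjusted p = 0.0318), which was -0.50 ± 0.11 without it (adjusted p = 0.00511). Leaving out any 1 undosed animal ended the call, with adjusted p of 0.0674, 0.0784 and 0.0979 for replicates 1, 2 and 3. So did a fit without the trend and 1 with only the compared arrays (adjusted p = 0.0616 and 0.133). In the DAM study it had 13431, 17372 and 16195 on basal diet, 9633, 7803 and 7513 at 800 mg/kg, and 5903, 5741 and 9321 at 2000 mg/kg. Both dosed groups were wholly lower, with changes of -0.91 ± 0.17 and -1.19 ± 0.17 (adjusted p = 0.0089 and 0.000546).

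Acaca, which commits acetyl-CoA to fatty acid synthesis, differed between the studies. PBO signals were 2917, 2464 and 1484 at 1500 mg/kg against 2006, 2161 and 2452 at 0 mg/kg, a change of 0.00 ± 0.20 (95% interval -0.42 to 0.43, adjusted p = 0.996). The 500 mg/kg animals, at 1487, 1498 and 1726, all lay below the undosed ones, but -0.48 ± 0.20 was not called (adjusted p = 0.416). DAM signals were 1855, 1457 and 1630 at 2000 mg/kg against 3034, 4132 and 3978 on basal diet. With DAM the gene fell by 0.83 ± 0.14 at 800 mg/kg and by 1.16 ± 0.14 at 2000 mg/kg (adjusted p = 0.00514 and 0.00016). Of the 10 genes, Acaca alone passed the test of the difference between the highest doses (1 of 10, background 2.14% higher and 2.77% lower): PBO minus DAM was 1.16 ± 0.26 (adjusted p = 0.0139). With only the compared arrays in the fit that call was lost (adjusted p = 0.0725). Its second, dimmer probe set gave 0.66 ± 0.37 for that difference (adjusted p = 0.354), and -0.78 at DAM 2000 mg/kg, which was not called (adjusted p = 0.0934).

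Fasn, the synthase itself, gave unlike values on its probe sets. On the brighter one, signals were 4076, 4606 and 1434 at PBO 1500 mg/kg against 3751, 6130 and 3432 at 0 mg/kg. Those groups overlapped, and -0.51 ± 0.35 was not called (adjusted p = 0.346). Without the third animal the change was 0.01 (adjusted p = 0.974). The other probe set had 711, 755.5 and 266 against 1652, 2255 and 1415, without overlap, and was called at -1.70 ± 0.34 (adjusted p = 0.00425). With DAM both fell: the brighter had 3480, 3345 and 5101 at 2000 mg/kg against 9187, 12796 and 11378 on basal diet (-1.49 ± 0.19, adjusted p = 0.000256), and the other changed by -2.59 ± 0.22 (adjusted p = 1.25e-05). PBO minus DAM for the brighter probe set was 0.98 ± 0.45 (adjusted p = 0.231). That difference was 1.51 and called without the PBO animal that stood apart (adjusted p = 0.00512).

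Thrsp, the carbohydrate responsive nuclear protein, had signals of 10276, 12328 and 1542 at PBO 1500 mg/kg against 13481, 20387 and 19836 at 0 mg/kg. The groups did not overlap, and the third animal lay far below its own group. The change was -1.60 ± 0.55 and not called (adjusted p = 0.0651), whereas without that animal it was -0.64 ± 0.16 and called (adjusted p = 0.0125). Leaving out the first or second animal instead gave -2.01 and -2.14, also called (adjusted p = 0.0344 and 0.0162). In the DAM study Thrsp fell with dose. Its signal was 11334, 14298 and 13221 on basal diet, 9852, 6423 and 6087 at 800 mg/kg, and 4747, 3445 and 3870 at 2000 mg/kg. The changes were -0.82 ± 0.17 and -1.69 ± 0.17 (adjusted p = 0.0159 and 3.64e-05), with a step of -0.87 between the doses (adjusted p = 0.0272). The 800 mg/kg call was lost without basal diet replicate 2 or without 800 mg/kg replicate 2 or 3 (-0.75, -0.73 and -0.70; adjusted p = 0.0658, 0.0701 and 0.072). The step between doses was lost without 800 mg/kg replicate 1 or without 2000 mg/kg replicate 2 or 3 (-0.65, -0.76 and -0.84, with adjusted p = 0.0569, 0.125 and 0.0763). No filter on low values and median scaling also ended that call (adjusted p = 0.0541 and 0.0599). It was kept in 10 of 16 other settings. Both other Thrsp probe sets fell at both DAM doses, and 1 of them did not pass for the step between doses (-0.69, adjusted p = 0.0549). At PBO 1500 mg/kg their groups overlapped with the undosed ones, at -1.41 and -1.49 (adjusted p = 0.103 and 0.109). Without the third PBO 1500 mg/kg animal these were -0.46 and -0.49 (adjusted p = 0.129 and 0.197). PBO minus DAM for the main probe set was 0.09 ± 0.66 (adjusted p = 0.961), and 1.05 and called without that animal (adjusted p = 0.0171).

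**Figure D3:**
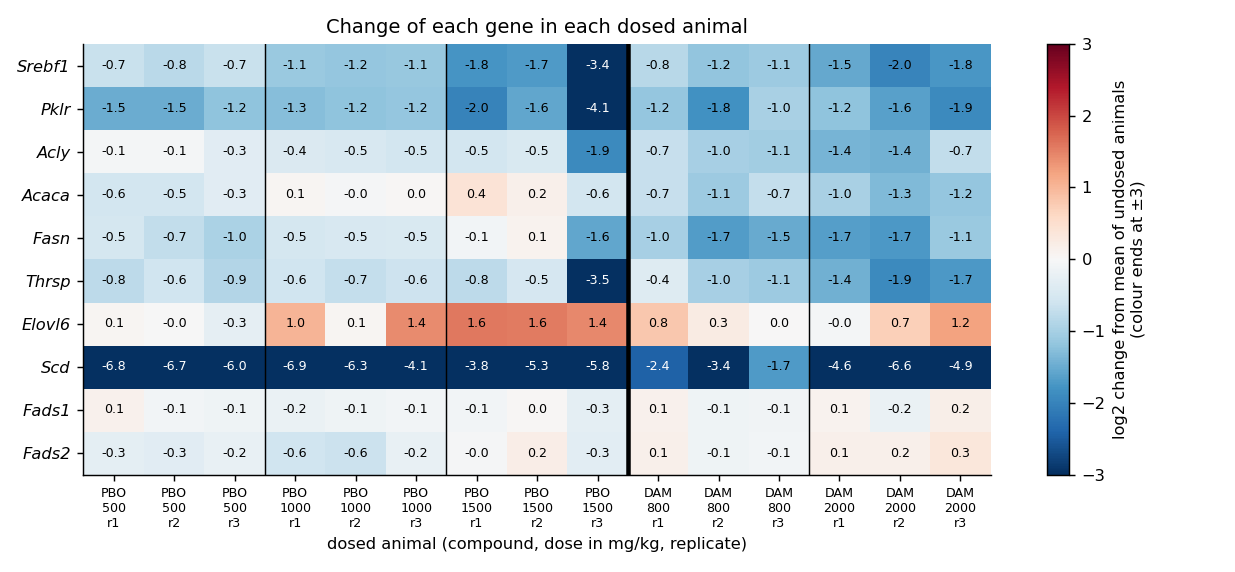
Change of each gene in each dosed animal from the mean of its study's undosed animals (log2(signal + 16)), printed in the cells and coloured to ±3. The third PBO 1500 mg/kg animal had the lowest value of its group for all 10 genes; for Elovl6 it stayed close to the others, at 1.43 against 1.58 and 1.55.

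Elovl6, the elongase that turns palmitate into stearate, went the other way. Its signal was 1477, 1455 and 1338 at PBO 1500 mg/kg against 405, 627 and 449 at 0 mg/kg, with no overlap and with the third animal close to the others. It rose by 1.52 ± 0.28 (2.87-fold, adjusted p = 0.00252), and the second probe set rose by 1.71 ± 0.27 (adjusted p = 0.000991). The 500 mg/kg animals, at 507, 481 and 400.4, were below all 1500 mg/kg animals (1.59 ± 0.28 between them, adjusted p = 0.00531). At 1000 mg/kg signals of 992, 503.5 and 1317 gave 0.82 ± 0.28, which was not called (adjusted p = 0.149), and without the second animal 1.21, which was (adjusted p = 0.0106). DAM animals had 429, 735 and 1041 at 2000 mg/kg against 218.5, 646 and 612 on basal diet. The groups overlapped, at 0.62 ± 0.38 (95% interval -0.21 to 1.45, adjusted p = 0.329). The difference between the compounds, 0.90 ± 0.52, was not called (adjusted p = 0.371). On the second probe set the DAM 2000 mg/kg change was 1.19 ± 0.47 (95% interval 0.17 to 2.22). Its groups overlapped too, and it was not called (adjusted p = 0.123). PBO minus DAM on that probe set was 0.52 ± 0.60 (adjusted p = 0.693).

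No change of Fads1 or Fads2, the polyunsaturated desaturases, was called in the main fit, with all arrays at equal weight. Fads1 had 14238, 15470 and 12415 at PBO 1500 mg/kg against 14789, 14632 and 15980 at 0 mg/kg, a change of -0.11 ± 0.11 (95% interval -0.34 to 0.12). With DAM 2000 mg/kg it had 14111, 11458 and 14840 against 14116, 13531 and 11792 on basal diet, at 0.03 ± 0.11 (95% interval -0.20 to 0.26). These intervals leave room only for changes far smaller than those of Scd. Fads2 gave -0.29, -0.48 and -0.05 in order of PBO dose, none of them called (adjusted p = 0.538, 0.0957 and 0.844). Its 1000 mg/kg animals, at 3841, 3721 and 4998, lay below the undosed 5562, 5963 and 5869, and without the third 1500 mg/kg animal that change was called (adjusted p = 0.0182). It was also called with array weights and with only the compared arrays (adjusted p = 0.0178 and 0.037). With DAM 2000 mg/kg Fads2 had 1926, 1948 and 2201 against 1756, 1792 and 1688, wholly higher, at 0.21 ± 0.089 (adjusted p = 0.151).

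**Figure D4:**
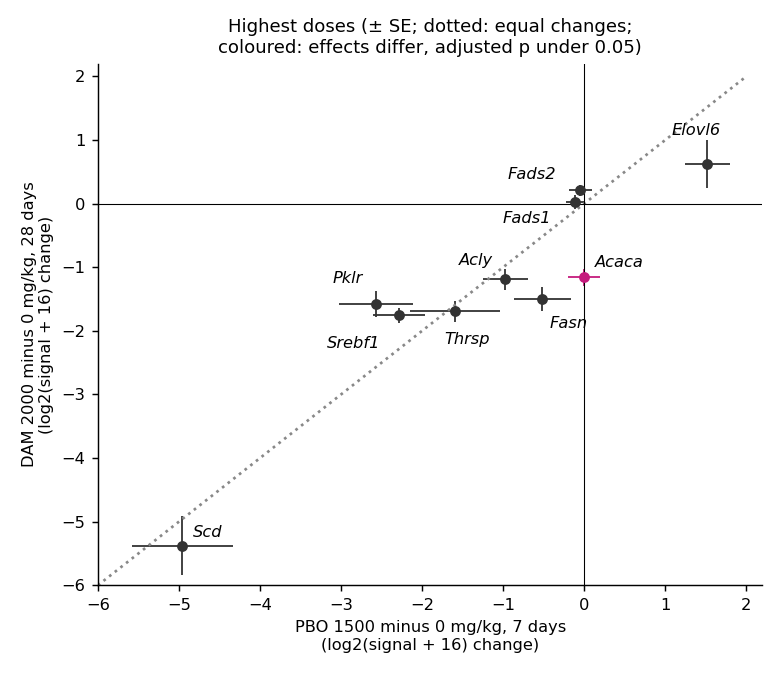
Change of each gene at PBO 1500 mg/kg (x axis) against its change at DAM 2000 mg/kg (y axis), both as log2(signal + 16) minus undosed, with standard errors; the dotted line marks equal changes. Acaca, coloured, was the gene whose difference passed the test; Scd lay at -4.96 and -5.38.

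Regulators of the pathway that are not among the 10 genes were counted beside the background. Of 13 listed, all tested, 2 fell and none rose at PBO 1500 mg/kg, and 1 fell and 1 rose at DAM 2000 mg/kg. Over all probe sets 9.26% fell and 8.08% rose at PBO 1500 mg/kg, and 6.11% fell and 6.22% rose at DAM 2000 mg/kg. The regulators' median change was -0.14 and -0.09, against -0.08 and -0.04 over all probe sets tested. At PBO 1500 mg/kg Mlxipl, which encodes the glucose-sensing factor ChREBP, fell by 0.64 ± 0.17 (adjusted p = 0.0215). Without PBO 1500 mg/kg replicate 3, or without undosed replicate 1 or 3, Mlxipl was no longer called (-0.51, -0.63 and -0.54, with adjusted p = 0.0526, 0.0662 and 0.0929). With only the compared arrays its call was lost too (adjusted p = 0.0928). Usf1, an E-box binding factor, fell by 0.64 ± 0.21 (adjusted p = 0.0492) and kept its call in 5 of 22 other settings; without PBO 1500 mg/kg replicate 3 it was -0.45 (adjusted p = 0.134). With DAM 2000 mg/kg, Insig1, a sterol-responsive protein that holds SREBP in the endoplasmic reticulum, fell by 1.07 ± 0.17 (adjusted p = 0.0011). At PBO 1500 mg/kg Insig1 had 7690, 7458 and 12386 against 3803, 7193 and 3653, and 0.94 ± 0.40 was not called (adjusted p = 0.124). PBO minus DAM for Insig1 was 2.01 ± 0.49 and called (adjusted p = 0.0212). It was 1 of the 13 regulators called in that test (background 2.14% higher and 2.77% lower). The paralogue Insig2 rose with DAM 2000 mg/kg by 0.34 ± 0.075 (adjusted p = 0.00971), a call lost without the trend (adjusted p = 0.0638).

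Genes that supply substrate and NADPH were described next. Of 9 listed, 7 had probe sets, and at PBO 1500 mg/kg 3 rose and 1 fell, where 8.08% of all probe sets rose and 9.26% fell. The list's median was 0.07 against -0.08 over all probe sets tested. Malic enzyme Me1 rose by 2.36 ± 0.17 (adjusted p = 3.02e-06). Among pentose phosphate pathway enzymes, Tkt rose by 0.72 ± 0.12 and Pgd by 0.54 ± 0.12 (adjusted p = 0.0014 and 0.00816). Slc2a2, the hepatocyte glucose transporter, fell by 0.68 ± 0.15 (adjusted p = 0.00694). Me1 was the gene of this list that rose with DAM 2000 mg/kg, by 0.68 ± 0.092 (adjusted p = 0.000459), 1 of 7 beside 6.22% of all probe sets, and none fell.

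Other elongases and desaturases were counted in the same way. Of 15 listed, 13 had probe sets, of which 12 were tested with PBO and 11 with DAM. At PBO 1500 mg/kg 1 fell, Elovl5, which elongates polyunsaturated fatty acids (-1.13 ± 0.17, adjusted p = 0.00062), beside 9.26% of all probe sets. The list's median was 0.07, against -0.08 over all probe sets tested. At DAM 2000 mg/kg Elovl5 also fell, by 0.45 ± 0.075 (adjusted p = 0.00201), while 3 of 11 rose, beside 6.11% lower and 6.22% higher over all probe sets. The list's median was 0.10, against -0.04 over all probe sets tested. The risers were Elovl2 (0.63 ± 0.11, adjusted p = 0.00269), Fads3 (0.63 ± 0.16, adjusted p = 0.0206) and Elovl1 (0.32 ± 0.086, adjusted p = 0.0296). Fads3 lost its call without basal diet replicate 2 or 2000 mg/kg replicate 2 (adjusted p = 0.0663 and 0.0948). Elovl1 lost it without replicate 1 or 2 on basal diet (adjusted p = 0.0534 and 0.0956), and without replicate 2 or 3 at 2000 mg/kg (adjusted p = 0.0779 and 0.0991). The Elovl1 call was also lost without the trend and with only the compared arrays (adjusted p = 0.0811 and 0.0521).

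Likeness of pattern was measured over 10654 named genes as the root mean square difference of log2 changes over the dosed animals of a study, a description with no test. In the 9 PBO animals, Abca8a, Igfals, Tkfc, Egf and Gnmt lay nearest to Srebf1, at 0.258 to 0.413 against a size of 1.60 for Srebf1 itself. Their changes at 1500 mg/kg ranged from -2.06 for Tkfc to -2.50 for Abca8a. In the 6 DAM animals, the nearest to Srebf1 were Oaf, Tspyl4, Thrsp, Tsc22d1 and Dmxl2, at 0.184 to 0.264 against 1.45, so one member stood among the nearest genes. No gene came close to Scd in the PBO study, where the nearest, Slc6a6, differed by 2.39 against a size of 5.83 for Scd, followed by Lox, Stac3, Fabp5 and Apoa4. Apoa4 was nearest to Scd in the DAM study, at 0.906 against 4.28, with changes of -3.48 and -5.73, followed by Spin2b, Noct, Sgk1 and Sds.

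Markers of other liver cells moved beside the members. Summed over the 5 of 7 macrophage markers on the array, signals were 9672, 6823 and 2282 at PBO 1500 mg/kg against 11186 to 12960 at 0 mg/kg, the lowest value being that of the animal that stood apart. In that animal the sum of the 6 stellate cell markers was 2912, against 7805 and 5624 in the rest of its group and 8178 to 10183 at 0 mg/kg. The 4 of 5 cholangiocyte markers on the array summed to 3465 to 4226 at PBO 1500 mg/kg against 1096 to 1422, and to 1599 to 1743 at DAM 2000 mg/kg against 671 to 924. Epcam made up most of that sum and rose by 2.06 and 1.37, while Krt19, at -0.31 and -0.27, was not called. Erythroid markers, 5 of 5, summed to 4385 to 10048 at PBO 1500 mg/kg against 21732 to 23037, and to 10128 to 21928 at DAM 2000 mg/kg against 13025 to 17699. At DAM 2000 mg/kg the macrophage sum was 7961 to 10150 against 11267 to 11389, and the stellate sum 7275 to 7483 against 8900 to 9999. Endothelial markers, 4 of 5, summed to 6451 to 7529 against 8928 to 9750 with PBO and to 4162 to 7134 against 6398 to 7925 with DAM. The 5 T and NK cell markers summed to 145 to 160.1 against 365 to 498 with PBO and to 181 to 241 against 273 to 308 with DAM, and the 5 of 6 adipocyte markers to 171 to 791 against 679 to 747 and to 634 to 871 against 723.5 to 994. Of the 5 T and NK cell markers, 1 passed the filter on low signal with PBO and 3 with DAM. Of the adipocyte markers, 2 passed it in each study. These sums thus rest in part on dim values. The part of these markers in the members' changes was not tested.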

How the data were processed

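The authors deposited linear intensity values, 1 per probe set and array. MAS5 is named in the submitters' processing notes, and its version and target value are not given in the sources used here. RNA was purified on RNeasy columns and labelled with biotin, per the labels' protocols. Groups, doses and replicate numbers came from the labels. Of 31099 probe sets, 57 are array controls and were left out, 20832 had 1 gene symbol, 436 several and 9831 none. No 2 of the 210 pairs of arrays shared over 50% identical values.

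Values were transformed as log2(signal + 16) with no further normalization. Probe sets above the 40th percentile of mean log2 signal were kept, 18625 per fit. Each study was fitted with all its arrays with limma 3.58.1 (lmFit, eBayes with an intensity trend) in R 4.3.3, and the difference between compounds over all 21 arrays. Adjusted p (Benjamini-Hochberg) covered every probe set in a fit, and 0.05 was the threshold. The fits were tested on simulated data. Figures were drawn with Python 3.11.15 and matplotlib 3.10.9.

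The members and gene lists were chosen with earlier results of these data known. All members are named. Of each other list, up to 4 genes past the threshold with the smallest adjusted p are named at the highest dose of each compound, and for Scd and Srebf1 the 5 nearest genes. Alternatives were pseudocounts of 1 and 64, filtering at the 60th percentile or not at all, quantile and median scaling, no trend, the replicate number as a block, only the compared arrays, array weights, and each array left out. Arrays give no count-based depth, and 3 per group limit the precision.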

Additional observations from a re-analysis of the deposited data

Results flagged for a closer look

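Acaca was singled out because its effect differed between the compounds in a test of that difference. The change at PBO 1500 mg/kg minus that at DAM 2000 mg/kg was 1.16 ± 0.26 (limma adjusted p = 0.0139), with signals of 2288 ± 732.5 against 2206 ± 226 undosed for PBO and 1647 ± 199 against 3715 ± 595 on basal diet for DAM (SD, n = 3). The difference was called in 27 of 28 other settings, at 0.96 to 1.46, and lost with only the compared arrays in the fit (adjusted p = 0.0725). Compound, strain, route, duration and storage cannot be told apart in this difference.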

How the results depend on the processing

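No member changed sign and stayed called under any alternative, and Scd was called at each PBO dose in all 22 alternatives and at DAM 2000 mg/kg in all 16. With only the compared arrays in the fit, 4, 6 and 1 members were called at PBO 500, 1000 and 1500 against 500 mg/kg and 0 for the difference between compounds, where limma gave 1 member an unadjusted p under 0.05. Over all probe sets these fits called 269 (115 lower, 154 higher), 1370, 1550 and 245 at PBO 500, 1000, 1500 and 1500 against 500 mg/kg and 322 for the difference, against 89, 581, 3228, 1370 and 914 with all arrays. Array weights gave 3, 4 and 2 members at PBO 500 mg/kg, PBO 1000 mg/kg and for the difference, and 348 and 1443 probe sets at those PBO doses. For the difference they called 509 probe sets higher and 691 lower. Leaving out each array gave 1 to 5, 1 to 6, 4 to 6 and 2 to 4 members at PBO 500, 1000, 1500 and 1500 against 500 mg/kg, 6 to 7, 7 to 7 and 1 to 3 at DAM 800, 2000 and 2000 against 800 mg/kg, and 1 to 3 for the difference. The matching counts over all probe sets were 52 to 371, 255 to 1448, 2032 to 3321, 613 to 1976, 382 to 575, 1492 to 1882, 121 to 198 and 502 to 1425. Fits with arrays left out hold fewer samples. The highest counts at PBO 500 and 1000 mg/kg, 371 and 1448, came without PBO 1500 mg/kg replicate 3. They lay above the 89 and 581 with all arrays. The cause of these shifts was not otherwise tested.

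Without the trend, 45, 300, 801, 235, 1501 and 60 probe sets were called at PBO 500, 1000 and 1500 against 500 mg/kg and at DAM 800, 2000 and 2000 against 800 mg/kg. Of the members, 3 were then called at DAM 800 mg/kg and 0 between the DAM doses, where limma gave 3 an unadjusted p under 0.05. Adjusted p at DAM 800 mg/kg was 0.0764 for Scd, 0.0567 for Acaca, 0.0768 for Acly and 0.1 for Thrsp, and between the DAM doses 0.0954 for Scd, 0.107 for Srebf1 and 0.162 for Thrsp. Median scaling turned the split of calls at PBO 1500 mg/kg to 1904 higher and 1203 lower, from 1504 and 1724, and at DAM 2000 mg/kg to 1623 and 655, from 1158 and 1138. At PBO 500, PBO 1000 and DAM 800 mg/kg it gave 97, 538 and 453 higher with 19, 150 and 173 lower, where the main setting gave 65, 351 and 403 with 24, 230 and 302. Scaling left Scd, Srebf1 and Pklr called lower at both highest doses.

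Same-numbered replicates did not deviate together over all probe sets (correlations of -0.037 to 0.046), so no pairing by number was seen. A pairing that moved few probe sets could be missed by this check. With the replicate block, 5 members were called at PBO 1500 mg/kg and 7 at DAM 2000 mg/kg, and no member's call changed. Of 18625 probe sets, that fit called 1410 higher and 1584 lower at PBO 1500 mg/kg. At DAM 2000 mg/kg it called 1033 higher and 1010 lower. Signal over background limits the dim second Acaca probe set.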

Other observations

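Genes of triglyceride assembly and lipid droplets, 14 listed and all tested, were described at the highest doses. At PBO 1500 mg/kg 3 rose and 1 fell, beside 8.08% higher and 9.26% lower over all probe sets, with a median of -0.05 against -0.08 over all probe sets tested. Dgat1, which adds the last acyl chain to triglyceride, rose by 1.25 ± 0.17 (adjusted p = 0.000375). The triglyceride lipase Pnpla2 rose by 1.48 ± 0.37 (adjusted p = 0.0154), with signals of 1103, 921 and 3715 against 598, 566 and 486. Without the third animal, the highest, it rose by 0.86 (adjusted p = 0.000708). The call was lost without undosed replicate 3 (1.40, adjusted p = 0.0583) and with only the compared arrays (adjusted p = 0.0943). Lpin2, a phosphatidate phosphatase, rose by 0.74 ± 0.23 (adjusted p = 0.0391) but kept its call in 11 of 22 other settings; without the third PBO 1500 mg/kg animal it was 0.76 (adjusted p = 0.0511). Cideb, a droplet and lipoprotein assembly protein, fell by 0.53 ± 0.13 (adjusted p = 0.0156). It was not called without undosed replicate 3 (-0.47, adjusted p = 0.0677) or with median scaling (-0.42, adjusted p = 0.0776).

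At DAM 2000 mg/kg 2 of the 14 fell and 1 rose, beside 6.11% lower and 6.22% higher over all probe sets, with a median of 0.11 against -0.04 over all probe sets tested. The droplet coat protein Plin2 fell by 0.66 ± 0.085 (adjusted p = 0.000285). Pnpla3, a lipid droplet protein under SREBP-1 control in mouse liver, fell by 1.95 ± 0.44 (adjusted p = 0.012), and by 1.54 without 2000 mg/kg replicate 2, where it was no longer called (adjusted p = 0.0502). Its signals were 19.1, 10.35 and 92.4 against 162.5, 174.5 and 154.9 on basal diet. Replicates 1 and 2 thus lay near the pseudocount of 16, and the size of the fall rests on dim values. Pnpla2 rose by 0.42 ± 0.11 (adjusted p = 0.0253) and was called in 11 of 16 other settings.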
